A study of Mus musculus with 14 samples.

Results

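H3K27ac, the acetylation of lysine 27 of histone H3, was compared between mouse small intestinal organoids taken through an M cell protocol that ends with the cytokine RANKL and organoids kept in ENR medium. The comparison takes every H3K27ac library of the study, 3 after the RANKL protocol and 3 in ENR, which is 6 of the 14 samples, and every one of the 55050 counted regions of 2000 bp. Both arms were grown from organoids of 1 female Lgr5GFPDTR/+ mouse, which carries a GFP and diphtheria toxin receptor allele at Lgr5. The RANKL arm spent 3 days in ENR to which CHIR99021 (3 µM), which switches on Wnt signalling by blocking the kinase GSK3, and valproic acid (1.5 mM), which blocks histone deacetylases, had been added. It then had 1 day in ENR and 6 days with 100 ng/mL RANKL. The control arm stayed in ENR, which holds EGF, Noggin and R-spondin 1. The 2 arms therefore differ by CHIR99021, valproic acid and RANKL together, and these cannot be told apart. Replicates are 3 differentiation experiments on the 1 organoid line, so p-values measure the spread between experiments and not between mice.

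H3K27ac is laid down by the acetyltransferases p300 and CBP and removed by histone deacetylases. It sits on nucleosomes beside active gene starts and at active enhancers, the distal elements that raise transcription from a start. Many gene starts lie in CpG islands and are used in most cell types, while enhancers are used in fewer cell types and lie inside genes, between genes and in long gene-poor stretches called gene deserts. Reads were counted as CPM, the usual counts scaled to a common library size, so a value is relative to the rest of its own library. The total amount of acetylation per cell was not measured. In a bulk culture, fewer cells with acetylation at a site and less acetylation per cell cannot be told apart.

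The ENR libraries held 5434172 to 9160267 reads in the regions and the RANKL libraries 2745451 to 3902301, so depth moved with the arm. Across regions, log signal correlated at 0.913 to 0.966 between libraries of 1 arm and at 0.841 to 0.861 between arms. Of 54765 regions tested, 8120 rose (14.8%) and 11523 fell (21.0%) at an adjusted p under 0.05 in edgeR's quasi-likelihood test with Benjamini-Hochberg adjustment. The excess of falls rests on the scaling: by library size only 9918 rose and 9608 fell, and with the dependence of the fold on signal strength removed 8420 rose and 8541 fell. With a log2 fold of 1 or more in size as a further condition, 4122 rose (7.53%) and 2124 fell (3.88%). All 10 epithelial marker genes had regions. As sums over their regions 2 rose and 6 fell, against 24.9% and 26.7% of all genes tested. Their summed signal was 2578 to 2779 CPM in ENR and 2460 to 2590 CPM after RANKL. The 6 of 8 leukocyte marker genes with a region summed to 90.2 to 110 CPM in ENR and 115 to 120 CPM after RANKL. Of these genes 4 rose and 0 fell, and the T cell gene Cd3e had no region. The 7 stromal markers summed to 258 to 265 CPM and 325 to 341 CPM, with 4 higher and 0 lower. Pdgfrb went from a mean of 11.9 to 64.4 CPM and Dcn from 10.6 to 24.3 CPM. Col1a2 rose by 0.59 and Acta2 by 0.17 on the log2 scale, and Pdgfra, Col1a1 and Vim were not called. The 5 endothelial markers summed to 173 to 189 CPM and 312 to 325 CPM, with 4 higher and 1 lower. Of 4 neural and glial markers 1 had a region, and it rose. The part of such cells in the results below was not tested.

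Gene starts lost H3K27ac relative to the rest of the genome. Regions within 2 kb of the start of a protein-coding gene had a median log2 fold of -0.34, with the middle 50% between -0.63 and -0.02. Of 12442 such regions, 811 rose (6.52%) and 6154 fell (49.5%), against 14.8% and 21.0% of all regions. The 10567 regions that lay over a start had a median of -0.38, and 54.1% of them fell. Regions away from starts had a median of 0.18, with 7280 higher (17.2%) and 5367 lower (12.7%) of 42271. Strong regions fell more often than weak ones, and with that dependence on signal removed by a smooth curve the split at gene starts was 1618 higher and 3983 lower, with a median of -0.16.

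Away from starts the balance changed with distance from genes. Inside genes the median log2 fold was 0.15, and 3472 of 19133 regions rose (18.1%) while 2653 fell (13.9%). Outside genes, up to 100 kb from the nearest gene and over 2 kb from any start, the median was 0.11. There 2488 rose and 2333 fell of 15920, and with the signal trend removed the median turned to -0.03. In gene deserts, over 100 kb from any protein-coding gene, the median was 0.40, and 1320 of 7218 rose (18.3%) while 381 fell (5.28%). With the signal trend removed the desert median was 0.13, and 829 rose (11.5%) while 397 fell (5.50%). By distance from the nearest start, the share of regions that fell went from 54.1% over a start to 20.6% at 0.5 to 2 kb, 16.4% at 10 to 20 kb, 8.69% at 100 to 200 kb and 1.14% beyond 500 kb. The share that rose went from 5.16% over a start to 15.7%, 16.9%, 18.2% and 19.2% over the same steps. With the signal trend removed it was 12.2%, 18.9%, 18.4%, 14.8% and 8.91%, so it did not climb with distance, while the share that fell still went from 34.6% over a start to 1.23% beyond 500 kb. Regions near the start of a long noncoding RNA and away from protein-coding starts lay between the classes, with 271 higher and 441 lower of 1850 and a median of -0.04 (0.05 when scaled by library size only).

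**Figure D1:**
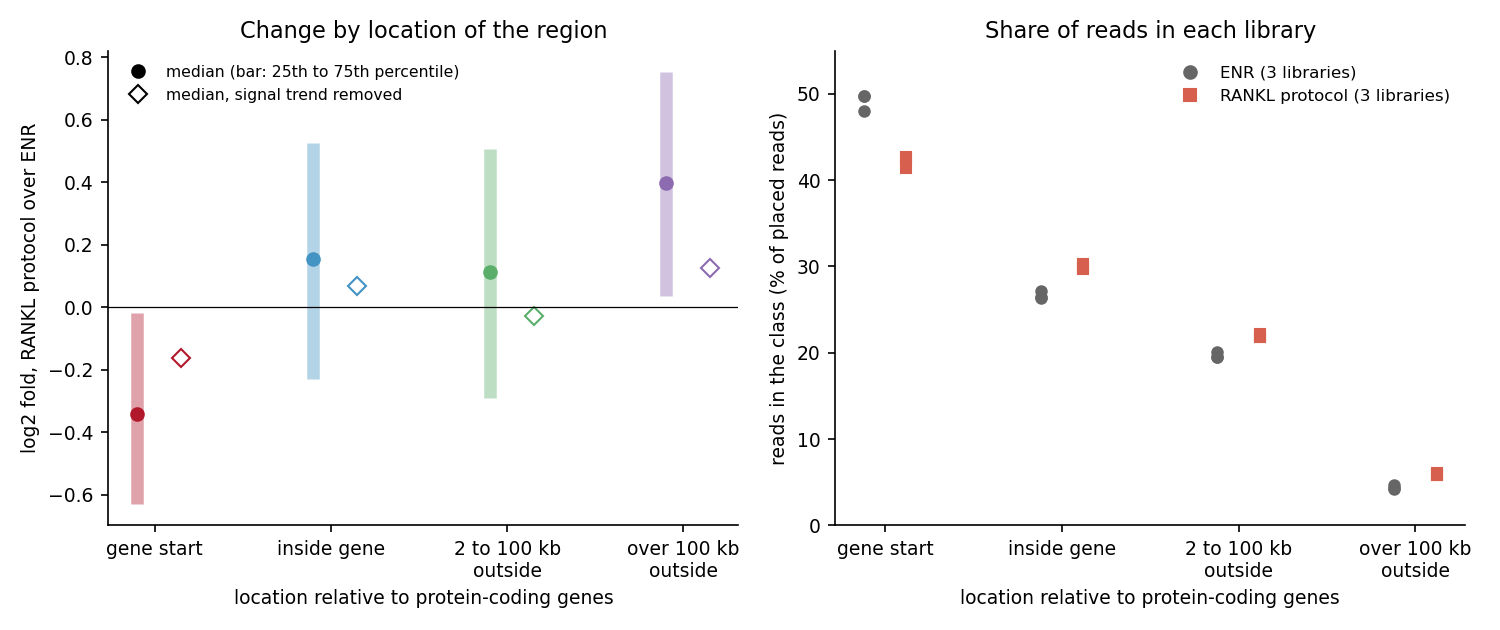
Left, median log2 fold of H3K27ac (RANKL protocol over ENR) for regions in 4 location classes, with bars for the 25th to 75th percentile and open diamonds for the median after removing the signal trend. Right, the share of placed reads in each class for the 3 ENR libraries (circles) and 3 RANKL libraries (squares). Gene starts sit at -0.34 and deserts at 0.40, and the gene-start share is 48.0% to 49.8% in ENR and 41.4% to 42.6% after RANKL.

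The same difference was present in the raw division of reads, which uses no scaling. Gene-start regions took 49.8%, 48.0% and 49.8% of the placed reads in ENR replicates 1 to 3 and 42.6%, 42.5% and 41.4% in RANKL replicates 1 to 3. Every RANKL library was below every ENR library, and the means were 49.2% ± 1.00 and 42.2% ± 0.65 (SD, n = 3 each). The exact permutation test, two-sided, gave p = 0.1, the smallest that 3 against 3 allows. Regions inside genes went from 26.7% ± 0.45 to 30.0% ± 0.28, those outside genes from 19.7% ± 0.33 to 22.0% ± 0.21, and deserts from 4.43% ± 0.23 to 5.88% ± 0.16, all without overlap between arms. The strongest 10% of regions took 38.5% ± 1.54 of reads in ENR and 35.8% ± 0.80 after RANKL, again without overlap. The strongest 5% took 22.9% ± 1.15 and 22.0% ± 0.61, with overlapping arms (exact permutation p = 0.3, two-sided, n = 3 each).

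Gene starts carry more signal than other regions, with a median of 32.7 CPM against 9.54 inside genes, 7.20 outside and 4.50 in deserts, so the classes were also compared at matched signal. In each of 10 equal bins of mean signal, the median over gene-start regions was below the medians of the other 3 classes. In the weakest bin it was 0.16 at starts, 0.39 inside genes, 0.34 outside and 0.47 in deserts. In the sixth bin the medians were -0.24, 0.17, -0.08 and 0.05. In the strongest bin they were -0.32, -0.21, -0.15 and -0.06. The gap between starts and other regions was thus narrower in the strongest bin than in the middle bins.

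**Figure D2:**
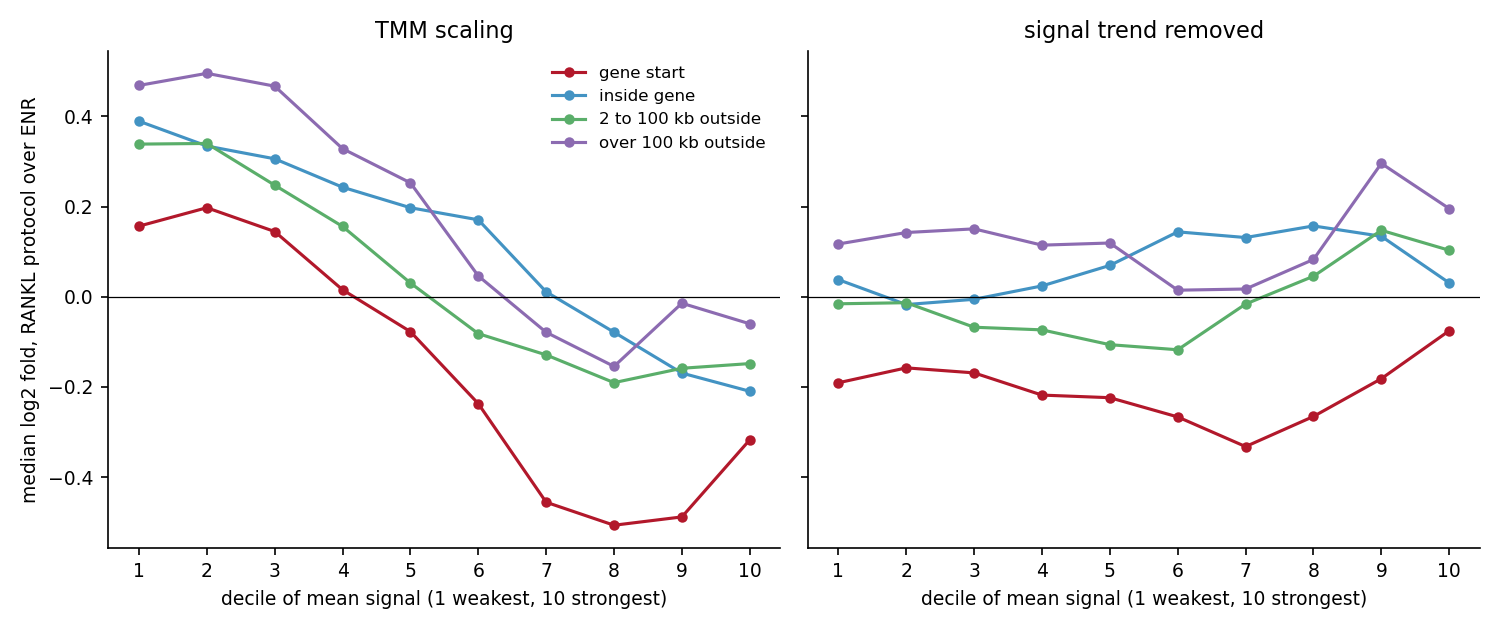
Median log2 fold (RANKL protocol over ENR) by decile of mean H3K27ac signal, 1 weakest and 10 strongest, for 4 location classes, with TMM scaling on the left and the signal trend removed on the right. The gene-start line runs below the other 3 in every decile of both panels.

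Some values that move with a change of background moved with the arm too. The 52 tested regions on unplaced scaffolds had a median log2 fold of 0.52, with 29 higher and 2 lower. The 4 regions on chromosome Y, in a line from a female mouse, held 3281 reads over the 6 libraries, and their share of reads was 0.009% in ENR and 0.014% after RANKL. The part of background reads and of depth in the gain of weak and desert regions was not tested. With every library thinned to the size of the smallest, 7316 regions rose and 9560 fell.

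Within the gene-start class, large single changes ran both ways. A region 1.35 kb from the start of Aif1l, which encodes an actin-binding protein related to allograft inflammatory factor, had 3.09, 2.64 and 3.56 CPM in ENR and 56.8, 61.9 and 51.6 CPM after RANKL. Every RANKL library was above every ENR library, and the region rose by 4.22 ± 0.18 (log2 fold ± SE, adjusted p = 1.44e-86, edgeR quasi-likelihood test). The start of Ubd, the gene of the ubiquitin-like modifier FAT10, had 2.32, 5.39 and 2.25 CPM in ENR and 60.3, 71.2 and 59.1 CPM after RANKL. It rose by 4.10 ± 0.17 (adjusted p = 2.15e-91), also without overlap. In the other direction, a region at an end of Bmp3, which encodes a secreted BMP family ligand, went from 54.7 ± 1.50 CPM to 8.62 ± 1.80 CPM (SD, n = 3 each) and fell by 2.70 ± 0.16. Bmp3 has no strand in the gene table, so this end may be its start or its far end.

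Large changes away from starts lay in introns, flanks and deserts. A region inside Cd200r2, a CD200 receptor family gene, at chr16:44908260-44910260, went from 3.41 ± 0.64 CPM to 83.4 ± 4.18 CPM, a log2 fold of 4.56 ± 0.16. Regions inside Slc35f4, a solute carrier family gene, and Fry, which encodes a microtubule-associated protein, rose by 4.35 ± 0.21 and 4.33 ± 0.17. A region 14.2 kb outside Dut, the gene of dUTPase, rose by 4.56 ± 0.18, from 2.55 ± 0.58 to 63.2 ± 4.61 CPM. In deserts, chr8:31372399-31374399, 107 kb from the nearest gene, rose by 4.52 ± 0.17, and chr8:33088899-33090899, at 139 kb, by 4.25 ± 0.17. Falling desert regions were chr6:94915037-94917037, which went from 33.5 ± 0.61 to 5.90 ± 3.07 CPM, chr14:58479712-58481712, from 52.2 ± 1.09 to 9.71 ± 2.31 CPM, and chr7:73196142-73198142, from 49.8 ± 4.21 to 9.54 ± 2.36 CPM. Adjusted p-values of these regions lie between 3.79e-114 and 2.11e-31 (edgeR quasi-likelihood test), and no arm overlaps the other in any of them.

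The promoters of gene starts that rose and fell were not alike in sequence. For 8643 regions that lay over a start, the 300 bases around it, 250 before and 50 after, could be read from RefSeq on GRCm38.p6, and 431 of these regions rose (4.99%) while 4745 fell (54.9%). Where CpG was rare, at up to 0.2 of the number expected from base composition, 15.2% of 420 regions rose and 31.2% fell, with a median of -0.13. Where CpG was above the expected number, 2.16% of 1110 rose and 62.4% fell, with a median of -0.40. Taking CpG-poor as up to 0.4 and CpG-rich as over 0.6, 12.8% of 1129 CpG-poor and 3.38% of 6394 CpG-rich starts rose, and 33.7% and 59.8% fell. CpG-rich starts carry more signal, with a median of 41.4 CPM against 17.8 CPM. In each of 5 equal bins of signal the CpG-rich median was the lower one, at -0.30 against 0.03 in the weakest bin and -0.26 against -0.23 in the strongest. With the signal trend removed, 20.0% rose and 23.6% fell in the bin with the rarest CpG, and 12.3% and 37.6% in the bin above the expected number.

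Short words known as binding sites of transcription factors were counted in the same windows on both strands. The 19 words searched are in part subsets of GC-rich or AT-rich sequence, so they move with CpG content, and a match is a run of letters and not a shown binding site. The NF-kB word, GGG and TTTCC with 2 bases of any kind between them, was in 26 of the 431 promoters that rose (6.03%), in 1.33% of those that fell, in 1.67% of those not called and in 1.60% of all 21263 promoters. The AP-1 word TGANTCA was in 53 of those that rose (12.3%), 3.92% of those that fell, 5.31% of those not called and 6.99% of all. Other words leaned to the same side. The TATA word was in 11.1% of those that rose and 6.22% of those that fell. The GATA word was in 8.58% and 5.02%, and the ONECUT core in 5.57% and 3.37%. Over all promoters these words were in 12.6%, 9.65% and 6.54%. The HNF4 word was in 1.16% (5 promoters) and 0.40%, PU.1/SPIB in 15.3% and 11.9%, and CDX in 8.35% and 6.43%. TCF/LEF was in 2.55% and 2.21%, and STAT in 7.19% and 6.58%. Among the 144 CpG-poor promoters that rose and 380 that fell, the NF-kB word was in 4.86% and 2.37%, and the AP-1 word in 20.8% and 12.1%. Over all 1129 CpG-poor promoters the NF-kB word was in 2.48% and the AP-1 word in 13.2%. The CpG-poor shares of the NF-kB word rest on few promoters. Words more frequent in promoters that fell included the ETS word CCGGAAG (21.0% against 9.28% of those that rose), the CRE word TGACGTCA (4.11% against 1.39%), the E2F word TTTCCCGC (2.61% against 0.93%) and the YY1 word AAGATGGC (5.08% against 2.32%). The KLF/SP word GGGCGGG was in 53.9% of those that fell and 42.2% of those that rose, the NFY word CCAAT in 42.3% and 32.3%, and the E-box CACGTG in 10.9% and 6.73%. The NRF1 word (2.47% against 1.16%) and the IRF word (2.63% against 1.86%) were on the same side. Among promoters not called the shares were 15.2% for ETS, 2.48% for CRE, 1.36% for E2F, 4.30% for YY1 and 46.7% for KLF/SP. They were 36.7% for NFY, 10.7% for the E-box, 1.76% for NRF1 and 2.94% for IRF. The E-box share of promoters that fell was thus close to that of promoters not called, and the IRF share was below it. Among the 380 CpG-poor promoters that fell and 144 that rose, the ETS word was in 7.11% and 1.39%. The CRE word was in 0.79% and 0.69% of them, and the E2F word in 0.53% and 0.69%. Shares of the CRE and E2F words rest on so few promoters that no order can be read from them.

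**Figure D3:**
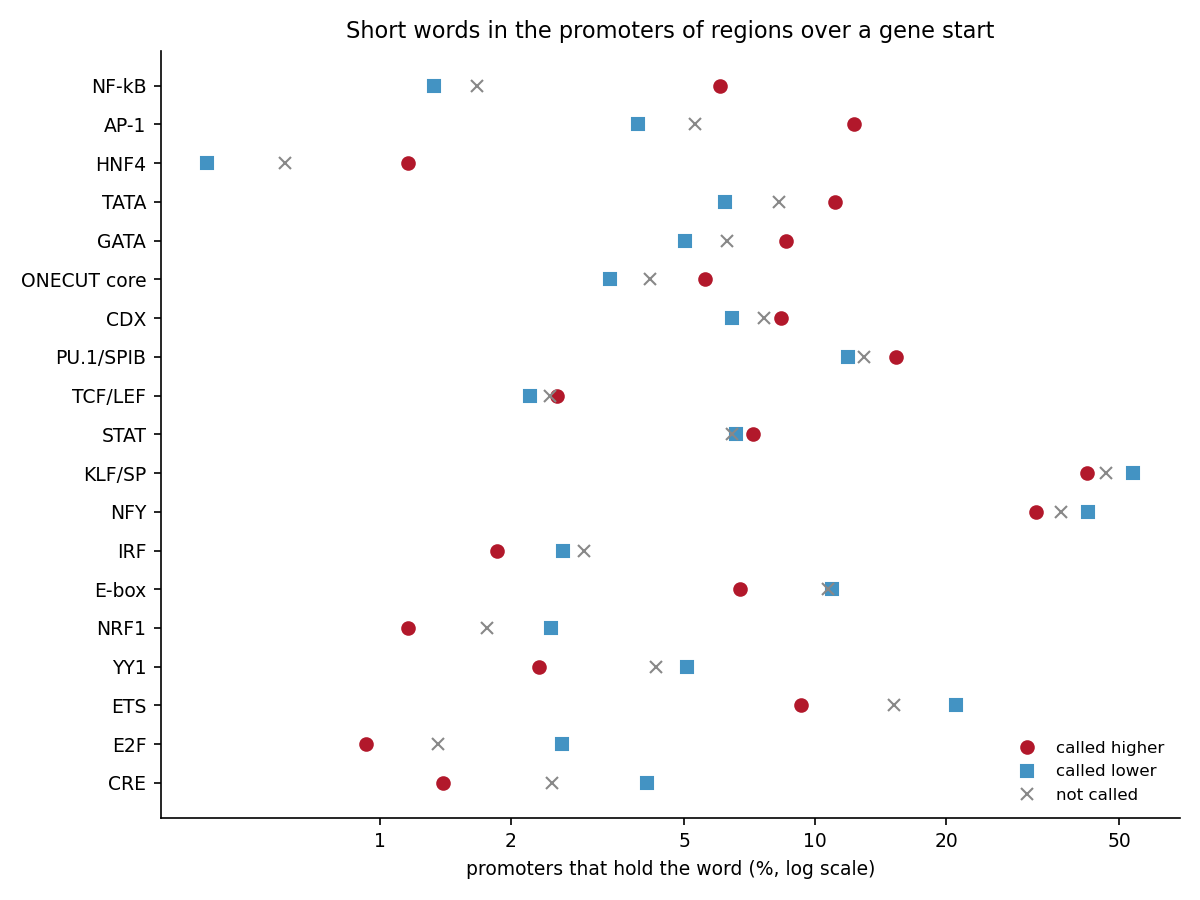
Share of promoters (log scale, %) that hold each of 19 short words, for regions over a gene start that were called higher (circles), called lower (squares) or not called (crosses). The NF-kB and AP-1 words stand at 6.03% and 12.3% of the promoters called higher and at 1.33% and 3.92% of those called lower.

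The stretches below come from promoters whose regions rose or fell, each read 5' to 3' on the strand of the gene. In each, 1 of these words is in capitals. Other words in a stretch are left in lower case, such as the AP-1 word in Ccl9 and the E2F word in H4c1. In Ubd the NF-kB word begins 15 bases before the start (chr17:37193842-37193891, + strand). Ccl9 encodes a chemokine made by the epithelium over lymphoid follicles (chr11:83578637-83578706, - strand). Nfkbia encodes the NF-kB inhibitor IkB alpha (chr12:55492648-55492711, - strand). Gm14137 is a predicted gene whose stretch shows the AP-1 word (chr2:119174414-119174490, + strand). H4c1, a histone H4 gene, shows the CRE word (chr13:23761305-23761382, - strand), and Septin10, a gene of a filament-forming GTPase, the E2F word (chr10:59221585-59221662, - strand).
Ubd: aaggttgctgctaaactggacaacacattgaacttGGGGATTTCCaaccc
Ccl9: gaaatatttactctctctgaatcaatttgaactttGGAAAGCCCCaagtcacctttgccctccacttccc
Nfkbia: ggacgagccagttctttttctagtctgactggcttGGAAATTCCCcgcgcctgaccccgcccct
Gm14137: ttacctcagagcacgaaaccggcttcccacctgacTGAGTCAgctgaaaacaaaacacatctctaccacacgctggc
H4c1: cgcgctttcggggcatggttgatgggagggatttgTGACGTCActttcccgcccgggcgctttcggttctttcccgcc
Septin10: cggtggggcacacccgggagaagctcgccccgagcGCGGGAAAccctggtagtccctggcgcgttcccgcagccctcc

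The region over the Ccl9 start had 5.80, 6.49 and 8.06 CPM in ENR and 57.5, 49.5 and 50.4 CPM after RANKL, and rose by 2.95 ± 0.16 (adjusted p = 6.45e-61, edgeR quasi-likelihood test). At Nfkbia the values were 58.6, 57.4 and 61.9 CPM in ENR and 200.6, 203.5 and 173.4 CPM after RANKL, a log2 fold of 1.70 ± 0.11. Neither gene's arms overlap. Of the other regions that rose over a promoter with the NF-kB word, Clca3a2 rose by 1.46, Il4ra, the interleukin 4 receptor gene, by 1.01, Casp4, an inflammatory caspase gene, by 0.93, Traf3, which encodes an adaptor of TNF receptors, by 0.86, and the zinc finger gene Rsl1 by 0.90. Nfkb2, which encodes the p100 precursor of NF-kB p52, rose by 0.66 and Tnfaip3, which encodes the NF-kB inhibitor A20, by 0.63. With Ubd, these are the 10 of 26 with the smallest adjusted p, a choice made after their values were seen. The other 16 rose by 0.27 (Txn1) to 1.01 (Ahrr). The Gm14137 start went from 15.3 ± 2.25 to 89.5 ± 8.28 CPM, a log2 fold of 2.52 ± 0.12. The H4c1 start had 78.5, 71.5 and 78.8 CPM in ENR and 28.2, 32.0 and 26.3 CPM after RANKL and fell by 1.40 ± 0.12, and that of Septin10 went from 85.4 ± 5.62 to 34.6 ± 3.55 CPM and fell by 1.31 ± 0.12.

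Starts and other regions of 1 gene were next compared with each other, which cancels any scaling of the libraries. For 7267 genes with both kinds of region, the fold at the start was divided by the fold over the gene's other regions, tested as an interaction in edgeR. The start was below the other regions at 2960 genes (40.7%) and above them at 508 (6.99%), with a median difference of -0.39 on the log2 scale. Signs of the 2 folds, without regard to a call, differed with the start down and the rest up at 2797 genes and the reverse at 542. With the signal trend removed, the start was called below the other regions at 2683 genes and above them at 570.

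The genes with the clearest such difference kept or lost signal at the start and gained it elsewhere. Rala, which encodes a small GTPase of the Ras family, had 84.6, 74.5 and 79.5 CPM at its start in ENR and 75.7, 83.0 and 65.1 CPM after RANKL, with overlapping arms. Its other region had 3.48, 3.52 and 4.31 CPM in ENR and 67.1, 73.1 and 73.8 CPM after RANKL, and the difference between the log2 folds was -4.34 ± 0.20 (adjusted p = 8.46e-28, edgeR quasi-likelihood test). At Cd2bp2, which encodes a splicing factor that binds CD2, the start went from 52.3 ± 3.69 to 34.3 ± 1.12 CPM and the other region from 5.05 ± 0.69 to 60.0 ± 4.49 CPM. At Arnt2, a bHLH-PAS transcription factor gene, the start went from 40.8 ± 2.23 to 11.9 ± 3.10 CPM while 11 other regions went from 87.9 ± 3.89 to 207.5 ± 5.90 CPM. Dut and Hmga1, a gene of an architectural chromatin protein, had differences of -3.77 ± 0.20 and -2.52 ± 0.14.

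Fewer genes had the reverse pattern. The start of Plb1, the gene of a brush border phospholipase, had 5.41, 9.02 and 6.38 CPM in ENR and 78.5, 61.0 and 85.4 CPM after RANKL, while its other 6 regions went from 93.7 ± 7.35 to 124 ± 11.7 CPM. The difference was 2.98 ± 0.18 (adjusted p = 1.58e-22, edgeR quasi-likelihood test), and no value at the start overlaps between arms. Acot7, which encodes an acyl-CoA thioesterase, went from 11.8 ± 1.52 to 45.7 ± 1.21 CPM at its start and from 208 ± 13.0 to 169 ± 9.46 CPM over 6 other regions, a difference of 2.25 ± 0.14. Dnajc18, Nrxn2 and Bik had differences of 3.72 ± 0.18, 3.03 ± 0.21 and 2.51 ± 0.16, but lack a strand in the gene table, so either end of the gene was taken as a start. With a limit of 1 kb in place of 2 kb the difference at Bik, a gene of a BH3-only cell death protein, was -1.41.

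Some genes have more than 1 annotated start with a region over it. Of 218 such genes, 55 had at least 2 start regions that fell, 7 had at least 2 that rose, and 8 had starts that moved in opposite directions. Of all regions over a start, 5722 of 10567 fell (54.1%) and 545 rose (5.16%). Whether the counts for these genes differ from those of unlinked start regions was not tested. At Nfe2l1, which encodes a transcription factor of proteasome genes, the start region at chr11:96823257-96825257 went from 11.8 ± 1.55 to 33.9 ± 7.63 CPM, a log2 fold of 1.56 ± 0.16. Its other start region, at chr11:96829164-96831164, went from 70.0 ± 4.49 to 53.2 ± 4.09 CPM and fell by 0.40 ± 0.11. At Ppp1r12b, a myosin phosphatase subunit gene, 1 start rose by 1.47 ± 0.18 and the other fell by 1.13 ± 0.17. At Gcnt2, a glycosyltransferase gene of the I blood group, the values were a fall by 0.84 ± 0.13 and a rise of 0.47 ± 0.14. The others were Tor1aip2, Net1, Galk2, Sh3tc1 and Smim14.

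Gene families were described from counts summed over all regions of a gene, within 100 kb of its span. Over all 16073 genes tested, 3998 rose (24.9%) and 4299 fell (26.7%), with a median log2 fold of 0.01, and at 57.2% of genes the arms did not overlap, where 51.6% were called in either direction. Gene sums and single regions were scaled separately, so H4c1, which has 1 region, reads -1.25 as a gene and -1.40 as a region. Of 69 families, 44 had more members that rose than fell and 25 the reverse. In 58 families the median over gene-start regions was below 0, in 58 the median over other regions was above 0, and in 68 the first was below the second. Across the 69 families, the median fold of the genes correlated with the share of the family's reads that lay at gene starts at Pearson's r = -0.67 and Spearman's rho = -0.68. This is a description of families that share the same 6 libraries, and with the signal trend removed the values were -0.48 and -0.50.

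**Figure D4:**
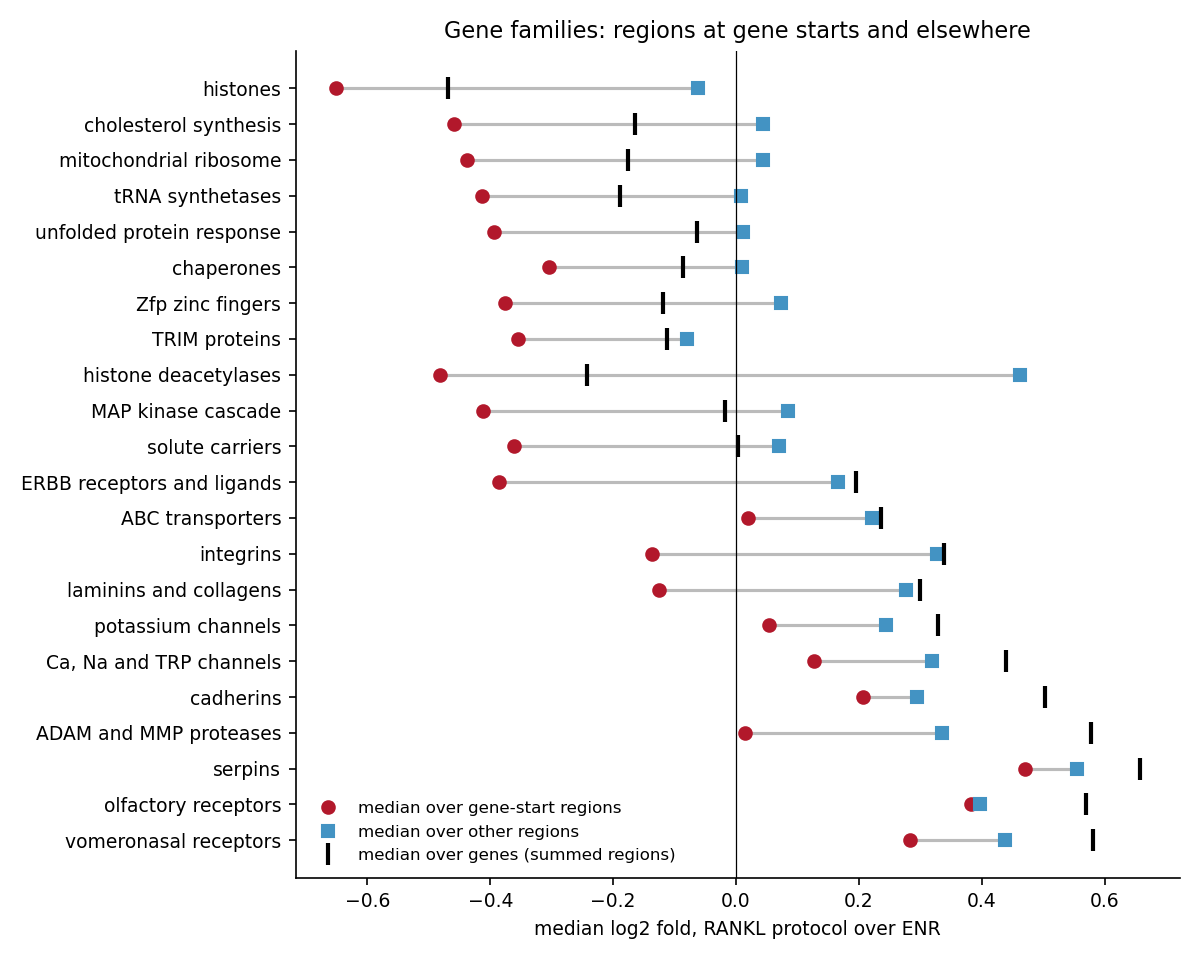
Median log2 fold (RANKL protocol over ENR) for gene families, over gene-start regions (circles), other regions (squares) and summed genes (black ticks). Histones stand at -0.65 for starts and -0.06 elsewhere, histone deacetylases at -0.48 and 0.46.

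Histone genes, whose products package DNA, had the highest share of members that fell among the 69 families. Of 45 tested, 3 rose and 27 fell, with a median of -0.47 against 0.01 over all genes. At their gene-start regions 32 of 36 fell and 0 rose, against 49.5% and 6.52% of all gene-start regions. H4c1 had 77.9, 72.9 and 78.3 CPM in ENR and 31.0, 35.3 and 29.9 CPM after RANKL. All its RANKL values were below all its ENR values, and it fell by 1.25 ± 0.11 (adjusted p = 8.03e-17, edgeR quasi-likelihood test). Histone genes occur as near-identical copies, so reads of single copies are uncertain. The variant gene H2az1 stood at 0.45 ± 0.08 as a sum over 5 regions, but its start region had a log2 fold of -0.56, and the sum over regions within 10 kb stood at -0.54.

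The histone deacetylases, enzymes that remove acetyl groups from histones, had 3 members higher and 8 lower of 18, with a median of -0.24. At their starts 11 of 16 regions fell and 0 rose, and of their 32 other regions 11 rose and 2 fell. Over all gene-start regions 49.5% fell and 6.52% rose, and over all regions away from starts 17.2% rose and 12.7% fell. Hdac4, a class II deacetylase gene, had 222, 217 and 204 CPM in ENR and 358, 356 and 345 CPM after RANKL, and rose by 0.72 ± 0.05. Its start region stood at -0.46 and the median of its other 9 regions at 0.49. Hdac5, also of class II, went from 74.2 ± 2.77 to 47.7 ± 1.63 CPM and fell by 0.63 ± 0.10. Of 14 histone acetyltransferases, 3 rose and 2 fell. Ncoa2, a nuclear receptor coactivator gene, rose by 0.45 ± 0.06 and Hat1, whose product acetylates new histones, fell by 0.93 ± 0.14. Chromatin remodellers, as sums over regions, had 14 higher and 4 lower of 37. Their single regions leaned the other way: 6 rose and 12 fell of 35 at starts, and 21 rose and 29 fell of 138 elsewhere. Smarcd3, a BAF complex subunit gene, was 1.43 ± 0.10 higher on the log2 scale. Chd7, a gene of a helicase found at enhancers, was 0.52 ± 0.06 lower.

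Of 67 mitochondrial ribosome genes, which serve translation in mitochondria, 6 rose and 27 fell (11 and 23 with the signal trend removed), with a median of -0.18, and Mrpl30 went from 94.5 ± 8.54 to 45.2 ± 1.71 CPM. Of 35 aminoacyl-tRNA synthetases, which charge tRNAs with amino acids, 6 rose and 13 fell. Wars, the tryptophan enzyme, fell by 0.60 ± 0.08. Of 72 chaperone genes, 13 rose and 27 fell (14 and 18 with the signal trend removed), with Dnajb1, an HSP40 gene, 0.59 ± 0.08 lower on the log2 scale. In the unfolded protein response, 2 of 26 rose and 9 fell, and Asns, asparagine synthetase, went from 72.3 ± 3.16 to 43.1 ± 3.73 CPM. Of 28 cholesterol synthesis and uptake genes, 4 rose and 13 fell. Of their 28 start regions 21 fell, against 49.5% of all gene-start regions. Dhcr7, the last enzyme of cholesterol synthesis, fell by 0.66 ± 0.09. Of 358 zinc finger genes with Zfp names, mostly DNA-binding proteins of the C2H2 type, 56 rose and 118 fell, and 162 of their 328 start regions fell, a share close to the 49.5% of all gene-start regions. Zfp367 fell by 1.05 ± 0.10 and Zfp819 rose by 2.66 ± 0.15. Of 55 TRIM genes, which encode ubiquitin ligases, 7 rose and 22 fell.

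Of 62 ADAM and matrix metalloproteinase genes, 32 rose and 7 fell, with a median of 0.58. Mmp20, a metalloproteinase gene known from tooth enamel, had 41.9, 44.6 and 43.3 CPM in ENR and 209, 173 and 190 CPM after RANKL and rose by 2.13 ± 0.08 (adjusted p = 1.46e-36, edgeR quasi-likelihood test). It has no region at its start, and its locus lies beside Mmp7. Of 24 integrin genes, receptors for matrix, 11 rose and 2 fell (10 and 4 with the signal trend removed). Itgav, the integrin alpha V gene, had 98.5, 103 and 108 CPM in ENR and 288, 293 and 286 CPM after RANKL, and rose by 1.49 ± 0.06. Neither Mmp20 nor Itgav has overlapping arms. Of 51 laminin and collagen genes, 17 rose and 2 fell. Lama5, a basement membrane laminin gene, went from 40.4 ± 2.76 to 144.5 ± 4.07 CPM and rose by 1.84 ± 0.09, while Itgb4, whose product binds laminin in hemidesmosomes, fell by 0.52 ± 0.08.

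Of 40 cadherins, adhesion proteins between cells, 17 rose and 6 fell (16 and 10 with the signal trend removed). Celsr1, a planar polarity cadherin gene, rose by 1.06 ± 0.06, and Dsg4, a desmosomal cadherin gene, fell by 0.63 ± 0.07. Of 34 serpins, mostly inhibitors of serine proteases, 20 rose and 1 fell, with a median of 0.66. Their regions are weak, with a median of 5.00 CPM, and with the signal trend removed 10 rose and 1 fell, with a median of 0.44. Serpinb1c went from 17.2 ± 2.16 to 70.1 ± 1.36 CPM, and Serpina9, the member that fell, lost its call under 4 alternatives. Of 76 potassium channel genes, 36 rose and 11 fell. Kcnj15, an inward rectifier gene, went from 27.3 ± 3.77 to 110.1 ± 7.15 CPM, and Kcnf1, a modulatory subunit gene, from 120.4 ± 4.14 to 50.9 ± 6.88 CPM. Of 55 calcium, sodium and TRP channel genes, 22 rose and 4 fell, with Trpm6, a magnesium channel gene, 1.17 ± 0.06 higher on the log2 scale. Of 46 ABC transporters, 20 rose and 3 fell, with Abcc8, the sulfonylurea receptor gene, at 1.67 ± 0.09. Not every surface family leaned this way: Wnt ligands and Frizzled receptors had 5 higher and 8 lower of 33, and transmembrane serine proteases 11 and 9 of 47, or 7 and 12 with the signal trend removed.

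Olfactory and vomeronasal receptors, known from sensory neurons of the nose, also had positive medians. Of 1110 olfactory receptor genes, 257 had enough signal to be tested, and 71 of these rose and 5 fell, with a median of 0.57. Of 98 vomeronasal receptor genes tested, 35 rose and 3 fell, with a median of 0.58. With the signal trend removed the olfactory medians and counts were 0.20, 28 and 7, and the vomeronasal ones 0.24, 16 and 4. Regions of these families are weak, with medians of 4.12 and 3.90 CPM, close to the 4.50 CPM of deserts, where the median fold was 0.40. Single members were stronger: Olfr976 went from 8.64 ± 1.61 to 52.3 ± 2.92 CPM and Vmn1r39 from 10.6 ± 1.50 to 72.7 ± 4.82 CPM. The part of background in these medians was not tested. The assignment to the nearest gene does not show that a region acts on that receptor.

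Solute carriers, a large family of membrane transporters, were evenly split. Of 315 tested, 88 rose and 86 fell, and the median was 0.00, or -0.03 by library size only. At their starts 28 rose and 119 fell of 237 regions, and elsewhere 146 rose and 141 fell of 800. The share of their starts that fell is close to the 49.5% over all gene starts. Over all regions away from starts 17.2% rose and 12.7% fell. Slc6a20a, a proline transporter gene, went from 21.1 ± 0.71 to 112.8 ± 8.47 CPM, and Slc12a3, a sodium chloride cotransporter gene, from 184 ± 14.6 to 71.4 ± 2.15 CPM. Cytochrome P450 genes, enzymes of drug and lipid oxidation, had 14 higher and 20 lower of 68. Genes of the MAP kinase cascade had 15 higher and 20 lower of 47, and Rab GTPases, which direct vesicle traffic, 11 and 18 of 58. With the signal trend removed these splits were 18 and 13 for the MAP kinase cascade and 15 and 13 for Rab GTPases, so both turned. Interleukin genes had 9 higher and 3 lower of 23. Il23a, the p19 subunit of interleukin 23, had 4.22, 5.60 and 5.59 CPM in ENR and 53.3, 42.9 and 46.6 CPM after RANKL and rose by 3.18 ± 0.19.

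Some genes that rose as sums had start and other regions apart. At Egfr, the EGF receptor gene, 12 regions summed to 267, 274 and 291 CPM in ENR and 372, 436 and 395 CPM after RANKL, without overlap. The gene rose by 0.54 ± 0.05, while its start region stood at -0.86 and the median of its others at 0.14, and the within-gene difference was -1.39. At Fgfr2, an FGF receptor gene, the sum rose by 0.87 ± 0.07, the start stood at -1.26 and the other regions at 0.33, with a difference of -2.25. Smarcd3 and Itgav, both higher as sums, had differences of -1.92 and -0.95. At Trim71, a gene of an RNA-binding ubiquitin ligase of early development, the difference was 1.39, with the start at 2.99 and the other regions at 0.62.

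Whole chromosomes differed by small amounts. The share of reads was tested for 21 chromosomes, of which 8 rose (38.1%) and 5 fell (23.8%). Chromosome 5 took 6.71%, 6.67% and 6.72% of reads in ENR and 6.33%, 6.35% and 6.32% after RANKL, a log2 fold of -0.080 ± 0.006 (adjusted p = 0.000107, edgeR quasi-likelihood test). Chromosome 11 went from 7.46% to 7.06%, a log2 fold of -0.079 ± 0.014, and chromosomes 17, 8 and 13 fell by 0.042, 0.035 and 0.015. Chromosomes 16, 12, 19, 1, 3, 18 and 9 rose by 0.058, 0.057, 0.057, 0.054, 0.048, 0.045 and 0.015. Chromosome Y, with 4 regions, rose by 0.61 ± 0.06. Of the 13 called chromosomes, 11 were called under all 10 alternatives, while 9 and 13 were not. Chromosome X was not called, with 10.5% of its regions higher and 17.4% lower.

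Across the 20 chromosomes other than Y, the log2 fold of the read share correlated with the share of regions at gene starts at Pearson's r = -0.64 and Spearman's rho = -0.61, a description over chromosomes that share the same libraries. Chromosome 11 has 33.6% of its regions at starts and chromosome 12 has 15.6%. Chromosome 5 lay below chromosomes with a like share, with 23.2% of regions at starts against 23.7% on chromosome 19, which rose. On chromosome 5 the medians were -0.39 at starts and 0.11 away, and on chromosome 19 they were -0.33 and 0.19.

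**Figure D5:**
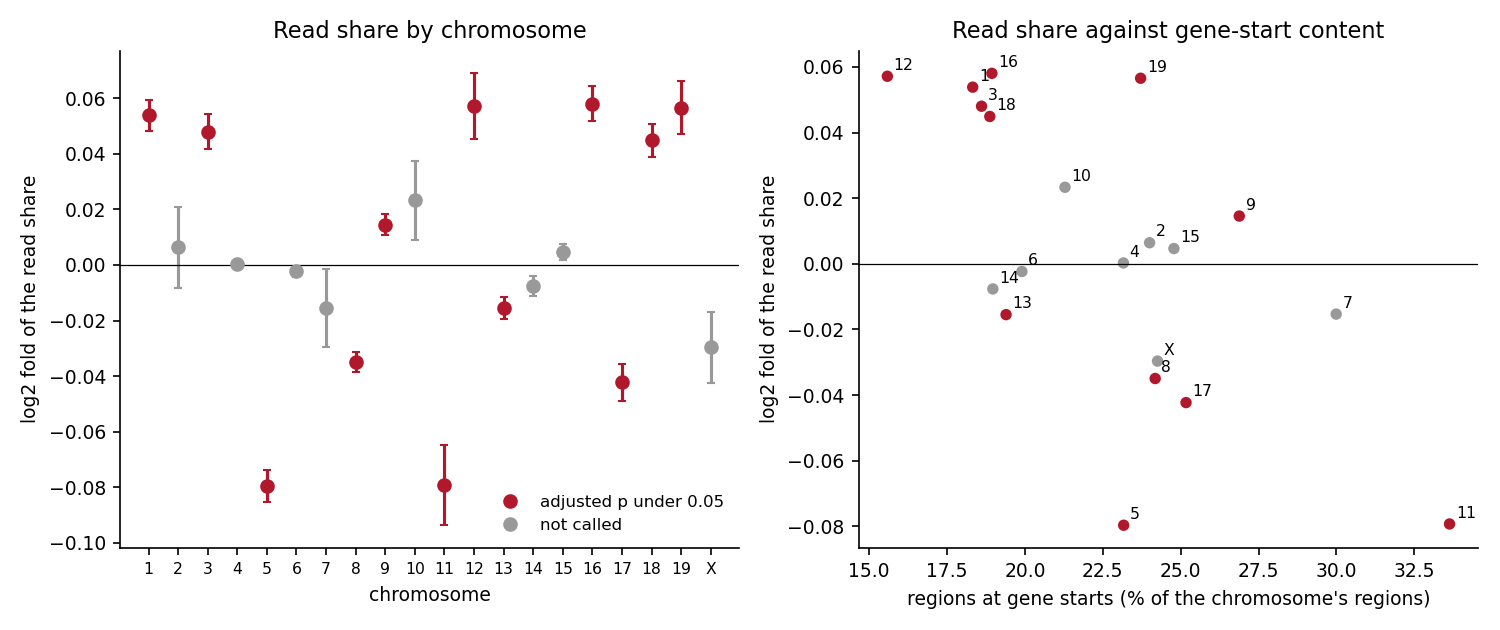
Left, log2 fold of each chromosome's share of H3K27ac reads (RANKL protocol over ENR) with its SE, none being given for chromosome 4, and called chromosomes in red. Right, the same folds for chromosomes against the percentage of their regions at gene starts. Chromosomes 5 and 11 sit near -0.08.

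Neighbouring regions moved together at short range. For regions up to 5 kb apart the log2 folds correlated at r = 0.41 over 5783 pairs, at 0.35 for 5 to 12.5 kb, 0.27 for 12.5 to 50 kb, 0.18 for 50 to 200 kb and 0.06 beyond 200 kb, as a description over regions of the same libraries. Of the closest pairs, 344 were both higher, 663 both lower and 210 called in opposite directions. Regions with gaps up to 12.5 kb were joined into 35609 domains, of which 24643 hold a single region. Of 35391 tested, 5502 rose (15.5%) and 7844 fell (22.2%), 37.7% in all. By library size only, which moves the median of all domains by 0.11, the split was 7224 higher and 6301 lower. Of 997 domains with at least 5 regions, 166 rose and 503 fell. Of these 997, 350 held called regions of both directions, 153 called regions that rose alone, 443 called regions that fell alone, and 51 none.

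The clearest rising domain lay outside Cd47, the gene of the surface protein that restrains engulfment. It spans chr16:49938094-49971752, all 5 of its regions rose, and it had 65.8, 69.3 and 69.3 CPM in ENR and 283, 279 and 272 CPM after RANKL. Every RANKL value was above every ENR value, with a log2 fold of 2.03 ± 0.08 (adjusted p = 7.44e-45, edgeR quasi-likelihood test). A domain at Itgav and its neighbour Zc3h15 (chr2:83689675-83735066) went from 61.4 ± 1.33 to 244.7 ± 11.7 CPM, with all 6 regions higher. Its Itgav start region stood at 0.67, below the other 5. Domains inside Tns3, a gene of a focal adhesion protein (chr11:8609703-8642942), at Tpm1, a tropomyosin gene (chr9:66989205-67026154), and at Mmp20 and Mmp7 (chr9:7651815-7693135) rose by 1.59 ± 0.07, 1.59 ± 0.08 and 1.66 ± 0.09. In each of these 3 domains all 5 regions rose.

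Falling domains of at least 5 regions lay inside and between genes. One inside Galnt7, which encodes an enzyme that starts or extends mucin-type O-glycans (chr8:57575436-57616452), had 123, 126 and 130 CPM in ENR and 25.9, 25.0 and 36.4 CPM after RANKL. All 5 regions fell, and the domain fell by 2.09 ± 0.11. At Il22ra1, the interleukin 22 receptor gene (chr4:135726967-135763655), 4 of 5 regions fell and the domain went from 129 ± 1.80 to 35.7 ± 5.81 CPM. Around the metallothionein genes Mt1 and Mt2, which bind zinc and copper (chr8:94166363-94215568), 4 of 7 regions fell, the regions at the Mt2 and Mt1 starts among them, and the domain went from 253 ± 13.0 to 111 ± 8.18 CPM. At the ephrin ligand genes Efna3 and Efna4 with Adam15 (chr3:89321975-89360830), 5 of 6 regions fell, with a log2 fold of -1.26 ± 0.09. A domain near the predicted gene Gm5294 (chr5:138845594-138876659) fell in 5 of 5 regions, by 1.93 ± 0.09.

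MicroRNA hairpins, from which mature microRNAs are cut, were placed on the regions by their RefSeq coordinates. Of 963 hairpins, 122 lay in 115 regions. Of the 122, 16 lay in a region that rose (13.1%), 49 in a region that fell (40.2%) and 64 in a region at a protein-coding gene start. Over all regions 14.8% rose and 21.0% fell, and over gene-start regions 6.52% and 49.5%. The region of Mir375 (chr1:74900658-74900721), a microRNA of epithelial and endocrine cells, had 31.9, 29.0 and 28.7 CPM in ENR and 10.0, 6.94 and 8.92 CPM after RANKL. Its arms do not overlap, and it fell by 1.79 ± 0.18. The region of Mir301b fell by 1.26 ± 0.19. Regions at Mir6392, which lies by the start of Pnpla3, and at Mir6973a, by that of the lymphotoxin beta gene Ltb, rose by 1.43 ± 0.20 and 1.25 ± 0.12. These 4 hairpins were chosen after their values were seen, and a region's signal may belong to the host gene.

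Sites of higher binding of the transcription factor ONECUT2 after the protocol, from the authors' deposited table, overlapped each location class. They lay in 7.15% of the gene-start regions that rose, 6.60% of those that fell and 5.28% of those not called. Inside genes the shares were 7.43%, 6.60% and 4.18%, outside genes 9.77%, 6.73% and 4.57%, and in deserts 7.73%, 6.82% and 2.76%. Regions with such a site were stronger than regions without, with medians of 9.09 against 4.44 CPM in deserts and 43.9 against 31.9 CPM at gene starts. The part of signal strength in these shares was not tested.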

How the data were processed

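H3K27ac was measured by ChIPmentation, chromatin immunoprecipitation in which Tn5 transposase adds the adapters, in 3 libraries per arm. The authors deposited raw read counts for 55050 regions of 2000 bp, per the file headers. Per the submitters' processing notes, reads were placed on mm10. Not given in the sources used here are the aligner, the peak caller, how duplicates were treated and whether the regions were called on pooled libraries. The authors' deposited ONECUT2 table gives log2 values per condition (DiffBind is the tool named in the submitters' processing notes), and its sites higher after RANKL were used here for their overlap with regions only. Not used here were the authors' normalised H3K27ac table, the inputs and ONECUT2 values of single libraries.

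The test was edgeR's quasi-likelihood test (edgeR 4.0.16 in R 4.3.3) after TMM scaling and filterByExpr, which left 54765 regions, with a threshold of 0.05 on the Benjamini-Hochberg adjusted p. Regions, genes, domains and chromosomes (library size only) were fitted separately, so their folds are not on 1 scale. Each of these fits was tested on simulated data. Depth was 2745451 to 9160267 reads per library. No 2 libraries were alike within sampling noise: the chi-square divided by its degrees of freedom was 1.80 to 2.06 for pairs within an arm.

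Gene spans and starts came from RefSeq on GRCm38.p6, the patched assembly that mm10 represents. Of 21887 protein-coding genes, 17492 had a stranded start. For the other 4395, either end of the span within 2 kb was taken, which placed 2787 of the 12485 gene-start regions. Genes took the regions within 100 kb of their span, 86.7% of all, and the nearest gene need not be the one a region acts on. Region coordinates are printed as deposited. The signal trend was removed with a loess curve of log2 fold on mean signal with a span of 0.3.

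The comparison, families, words and markers were chosen with earlier results of these data known, and genes wrongly listed in families were removed after values were seen. Named regions are the 3 largest called changes per location class and direction with at least 5 CPM and no overlap between arms. Named genes are the called family members with the smallest adjusted p in each direction, the 5 clearest genes per direction for the within-gene difference and the 5 clearest domains of at least 5 regions. Some regions that meet the rule are not named. Replicate numbers mark the differentiation experiment in the labels, and deviations of same-numbered libraries correlated at 0.014, -0.027 and -0.008. Alternatives were library size only, DESeq2 1.42.0, no filter, the signal trend removed, thinning, a replicate block, other distances and leaving out each library.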

Additional observations from a re-analysis of the deposited data

How the results depend on the processing

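Counts of regions, genes and domains moved by less than 1.5 times under library size only, DESeq2, no filter, thinning and the replicate block. Counts of within-gene differences moved by less than 1.5 times under no filter and thinning, and were not fitted with DESeq2 or the replicate block. Library size only cannot move them, because each library is a block within the gene. Over the counts of all regions, of gene starts, of regions away from starts, of genes and of domains, the signal trend made the exception: with it removed, regions at gene ends higher went from 811 to 1618 and regions at gene ends lower from 6154 to 3983, so the share of gene-start calls that were higher went from 11.6% to 28.9%. Within classes, desert regions higher went from 1320 to 829. With the replicate block, which pairs the arms by the experiment number in the labels, 7708 regions rose and 11095 fell, 3867 genes rose and 4190 fell, and no count moved by over 1.5 times. For the read shares the smallest p of the exact paired sign-flip permutation test is 0.25. Leaving out each library in turn gave 6737 to 7484 regions higher and 9972 to 10907 lower, 684 to 768 gene-start regions higher and 5281 to 6018 lower, 11 to 16 chromosomes called, and a fall in the gene-start share of 6.6 to 7.6 points. DESeq2 called 6256 regions higher and 9550 lower. Taking starts of known strand alone, an alternative chosen after seeing the data, left 584 gene-start regions higher and 4970 lower. Of the named genes' values under the alternatives, 1769 of 1778 kept direction and call and 8 lost the call. H2az1 (gene), at 0.45, became -0.54 with regions within 10 kb alone, which leaves out its farther regions. Bik (within gene), at 2.51, became -1.41 with a start limit of 1 kb, which leaves out 1 of its ends. All 288 values of named regions and all 120 of named domains kept direction and call. Precision is set by the RANKL libraries, the smallest with 2745451 reads, and 3 libraries an arm.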
